A study of Mus musculus with 18 samples.

Results

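Mll1, Mll3, Ash1l, Ash2l and Wdr5 are 5 of the 64 genes on a focused array of Polycomb and Trithorax group genes. They were chosen by symbol, from the histone methyltransferases of the Trithorax group on the array and the core partners of the MLL enzymes. Mll2 and Rbbp5, also of these kinds and on the array, are treated apart below. RNA came from mesenchymal stem cells of the inguinal fat pad of FVB mice, grown in culture and taken within passage 5. All mice were of the FVB strain and the labels name no treatment, so by the labels the groups differ in donor age alone: 1, 3, 6, 12 and 24 months, with 4, 3, 3, 3 and 2 samples. These are expanded cultures rather than cells taken straight from the fat pad. The labels do not say that every sample is a separate mouse, so p-values measure the spread between these samples, save in the fit over arrays described below.

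Trithorax group proteins keep genes active through cell division, against the Polycomb group proteins that keep genes silent. MLL family enzymes methylate lysine 4 of histone H3, a mark of active promoters and enhancers, and are nearly inactive alone. They work with a shared core in which Wdr5 and Ash2l hold the enzyme in its active form. Ash1l is a separate enzyme that methylates lysine 36 of histone H3. In mesenchymal stem cells such marks help to set which lineage genes can be switched on.

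The files' names Mll1 and Mll3 are older symbols of Kmt2a and Kmt2c, and all 5 genes were matched to 1 entry each of a RefSeq gene table. Sequences at the transcription start are shown for Mll1 and Mll3, the enzyme genes whose levels differed most between ages. Each window holds 250 bases before and 50 bases after the start, 5′ to 3′ on the gene's strand, from RefSeq on GRCm38.p6. They are chr9:44881240-44881539 (minus strand) for Mll1 and chr5:25498734-25499033 (minus strand) for Mll3. Capitals mark the GC box, GGGCGG or CCGCCC, found on either strand, with overlapping matches counted each.
Mll1: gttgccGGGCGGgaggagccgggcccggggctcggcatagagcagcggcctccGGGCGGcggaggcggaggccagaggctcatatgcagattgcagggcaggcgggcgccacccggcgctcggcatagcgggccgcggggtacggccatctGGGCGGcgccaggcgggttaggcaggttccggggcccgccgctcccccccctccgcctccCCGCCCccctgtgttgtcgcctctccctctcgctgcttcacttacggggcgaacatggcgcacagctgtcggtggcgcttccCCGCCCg
Mll3: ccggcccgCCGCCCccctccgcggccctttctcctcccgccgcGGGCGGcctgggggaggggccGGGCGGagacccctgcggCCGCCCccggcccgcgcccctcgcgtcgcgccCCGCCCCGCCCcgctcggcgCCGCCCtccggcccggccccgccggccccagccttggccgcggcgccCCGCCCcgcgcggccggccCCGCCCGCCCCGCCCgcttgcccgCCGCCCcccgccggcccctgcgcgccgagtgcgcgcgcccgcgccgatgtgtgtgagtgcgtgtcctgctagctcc
The Mll1 window holds 5 matches and the Mll3 window 12, while 35.7% of 32851 such windows hold at least 1. The CpG pair occurs 36 times in the Mll1 window and 56 times in the Mll3 window, against a median of 7 over all windows. At least as many CpG pairs were found in 6.23% and 0.195% of windows. The TATA motif TATAAA (or TTTATA) occurs in neither, and in 13.6% of all windows. The array measured transcripts and not these regions, and a match is a description of the letters only.

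Each of the 5 genes has 2 spots on the array, called copy 1 and copy 2 here. An array reads 1 colour, and a gene's level is the log2 of its normalised spot signal, averaged over its spots and over the arrays of a sample. In all, 18 arrays cover the 15 samples, since samples 1 and 8 of 1 month and sample 2 of 12 months have 2 arrays each. The median gene signal of an array ran from 8286 to 33357 pixel units and 23 to 39 genes were detected per array, and the number of arrays limits the precision. From their names and order in the files, 12 arrays (11 samples) form a first set and 6 arrays (6 samples) a second one. The first set holds every sample of 3 and 6 months, and the second holds both 24-month ones. The second set was dimmer, with a median signal of 11660 against 21221. None of 9 listed markers of mesenchymal stem cells is on the array. Of the markers of other cells, those of blood (Itgb2, Nckap1l, Ctsg) and endothelium (Darc) were detected in 0 samples and Krt17 of epithelium in 1.

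Detection in a sample required a present call on 50% or more of a gene's spots. Mll1 and Ash1l were detected in 15 of 15 samples, Mll3 in 12, Ash2l in 11 and Wdr5 in 1. The 38 genes detected in at least 2 samples were tested, and 4 of the 5 genes are among them. No member passed in any comparison between ages in limma at an adjusted p of 0.05. Over the 5 ages limma called 0 of 38 genes (0%), and 13 genes (34.2%) had an unadjusted p under 0.05. Among the members the only one of these was Mll3, with an adjusted p of 0.137, and the adjusted p was 0.522 for Mll1, 0.533 for Ash2l and 0.682 for Ash1l. Against 1 month limma called 0 (0%), 1 (2.63%), 0 (0%) and 0 (0%) of 38 genes at 3, 6, 12 and 24 months. At an unadjusted p under 0.05 these counts were 5 (13.2%), 6 (15.8%), 2 (5.26%) and 6 (15.8%), with Mll3 among the 5 at 3 months and Ash2l among the 6 at 24 months.

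**Figure D1:**
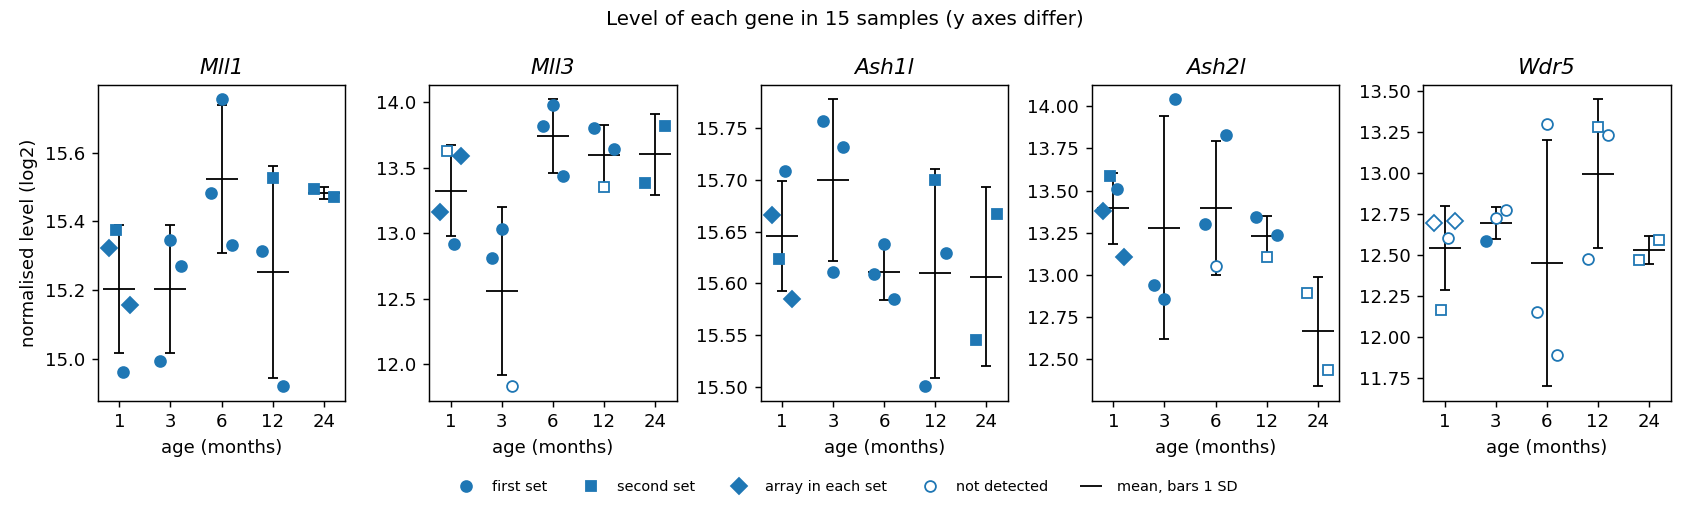
Normalised level (log2, y axes differ) of the 5 genes in 15 samples against donor age in months. Points are samples, shaped by set of arrays and open where the gene was not detected, and bars give the mean and 1 SD. Mll3 is lowest at 3 months, Ash2l is lowest and undetected at 24 months, and Wdr5 is open in all but 1 sample.

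Mll1 encodes the founding enzyme of the MLL family, known for its fusions in leukaemia. Its level was 15.32, 15.37, 14.96 and 15.16 in the 1-month samples and 14.99, 15.35 and 15.27 at 3 months. It was 15.48, 15.76 and 15.33 at 6 months. It was 15.31, 15.53 and 14.92 at 12 months and 15.49 and 15.47 at 24 months. The 6-month and 24-month means were the highest, at 15.52 ± 0.22 (SD, n = 3) and 15.48 ± 0.02 (n = 2), and the other means lay between 15.20 and 15.25. Sample 8 of 6 months lay within the 1-month range, while both 24-month samples lay above every 1-month sample. At 24 months 18.4% of the 38 genes stood higher in this way.

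The difference of Mll1 from 1 month was 0.32 (SE 0.16, adjusted p = 0.278 in limma) at 6 months and 0.28 (SE 0.18, adjusted p = 0.447) at 24 months. Without sample 7 of 6 months, whose copy 2 was marked as saturated, the 6-month difference was 0.20 (adjusted p = 0.754). Both values moved when the set of arrays entered the fit. Mll1 was higher in the second set by 0.36 (SE 0.11, adjusted p = 0.0320), the one call made on a member. In that comparison limma called 9 of 38 genes (23.7%). The fit took arrays of a sample as nearly separate units, with an estimated correlation of 0.03 between them. With the set as a term the 6-month difference was 0.49 (SE 0.14, adjusted p = 0.0618) and the 24-month difference 0.09 (SE 0.15, adjusted p = 0.987). Within the first set the 6-month difference was 0.49 (adjusted p = 0.109), and within the second set the 24-month difference was 0.08 (adjusted p = 0.997).

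Some samples were measured in both sets. Mll1 in sample 1 of 1 month read 15.02 in the first set and 15.63 in the second, and sample 8 read 15.11 and 15.20. In sample 2 of 12 months, with both arrays in the first set, Mll1 read 15.34 and 15.29. The call on Mll1 between the sets held on leaving out 11 of the 15 samples. Without sample 1 of 1 month it was 0.29 (adjusted p = 0.174 in limma), and without sample 2 of 1 month, sample 5 of 1 month or sample 3 of 12 months the difference was 0.37, 0.34 or 0.37 but the adjusted p was 0.0591, 0.0769 or 0.101. The difference depended on scaling: it was 1.21 (adjusted p = 0.00288) with arrays centred on their median and -0.04 (adjusted p = 0.726) in the authors' deposited ratios. These scalings moved the median of all tested genes between the sets by 0.63 and -0.48, and Mll1 stood above that median under both. So did Ash1l, at 1.06 and -0.11, though its set difference was -0.02 in the main scaling. The part of the scaling in the set difference of Mll1 was not tested.

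**Figure D2:**
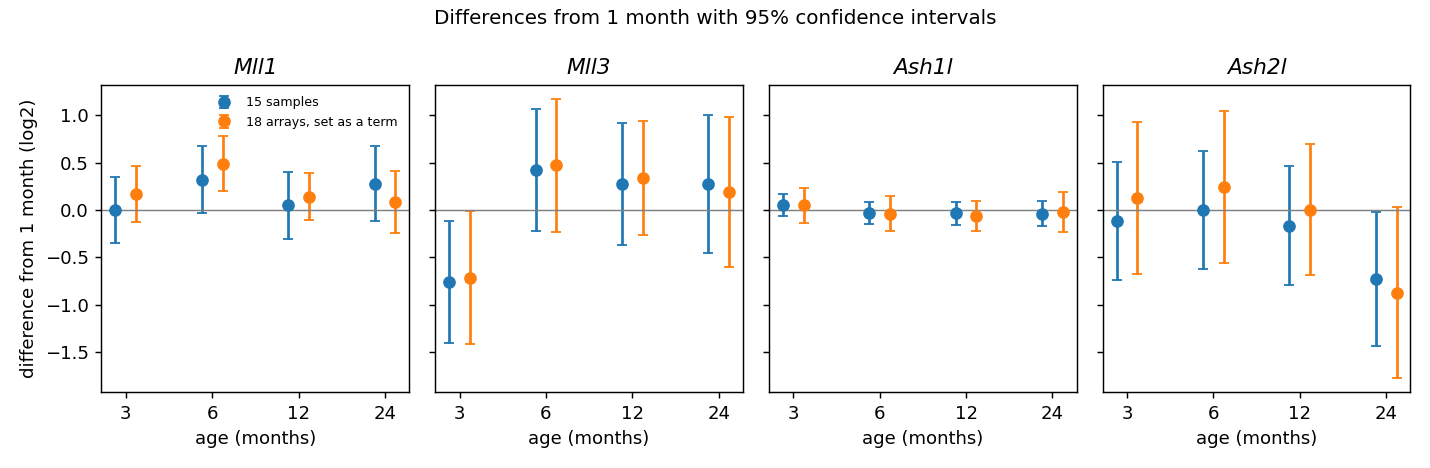
Difference of each tested gene from 1 month (log2) at 3, 6, 12 and 24 months, with 95% confidence intervals from limma, in the fit over 15 samples and in the fit over 18 arrays with the set as a term. No difference passed the adjusted test, and the 24-month point of Mll1 moves from 0.28 to 0.09.

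**Figure D3:**
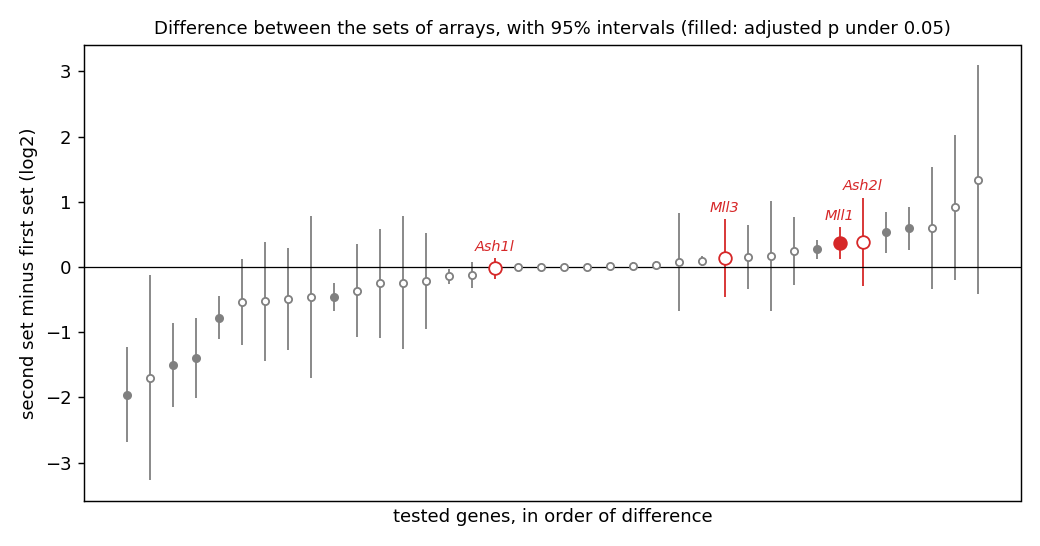
Second set minus first set (log2) for the 38 tested genes in order of difference, with 95% confidence intervals from limma. Filled points have an adjusted p under 0.05. Mll1, at 0.36, is the member among the 9 filled points, and Ash1l lies at -0.02.

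Mll3 encodes a related enzyme that acts mainly at enhancers. Its level was 13.16, 13.63, 12.92 and 13.59 in the 1-month samples. At 3 months it was 12.81, 13.04 and 11.83, the lowest mean of the 5 ages at 12.56 ± 0.64 (SD, n = 3). At 6 months it was 13.82, 13.98 and 13.43, the highest mean at 13.74 ± 0.28 (n = 3). Levels at 12 months were 13.81, 13.35 and 13.64, and at 24 months 13.38 and 13.82. Every sample of 6, 12 and 24 months lay above every 3-month sample, and the 1-month samples overlapped with all other ages.

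Mll3 differed by -0.77 at 3 months from 1 month (SE 0.29, adjusted p = 0.327 in limma), with 3 of 3 samples below the 1-month mean. Without sample 8 of 3 months it was -0.40 (adjusted p = 0.795). The 6-month samples differed from the 3-month samples by 1.18 (SE 0.31, adjusted p = 0.0596). The 12-month and 24-month samples differed from them by 1.04 (SE 0.31, adjusted p = 0.0659) and 1.04 (SE 0.35, adjusted p = 0.0602). These 3 comparisons share the 3-month samples. Limma called 1 (2.63%), 2 (5.26%) and 0 (0%) of 38 genes in them. Groups stood apart upward in 5.26%, 13.2% and 26.3% of genes. All 3-month and 6-month arrays are in the first set, where the difference was again 1.18 (adjusted p = 0.104).

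The 3-month result lies close to the threshold and goes past it under some settings and away from it under others. The 6-month difference from 3 months had an adjusted p of 0.0373 with the first array of each sample only and 0.0381 with array weights. With array weights the differences of 12 and 24 months from 3 months also passed (adjusted p = 0.0387 and 0.0467). The 6-month one had 0.0412 with no background correction and 0.0420 with the deposited local background in the correction. In the authors' deposited ratios, which divide by saturated housekeeping spots, it was 0.40 (adjusted p = 0.985 in limma). There the 12-month difference was 0.06 and the 24-month difference turned to -0.20. In the fit with the set the adjusted p was 0.156, 0.127 and 0.572 at 6, 12 and 24 months. Without sample 2 of 1 month the adjusted p of the 6-month difference was 0.0495, and without sample 5 of 3 months that of the 12-month difference was 0.0497. Without sample 8 of 3 months, the lowest and undetected, the 6-month difference was 0.82 (adjusted p = 0.182) and the 12-month and 24-month ones 0.68 each (adjusted p = 0.235 and 0.160).

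The 2 spots of Mll3 did not show this difference alike. Copy 1 was called present on 15 of 18 arrays and copy 2 on 7. At 3 months copy 2 was present on 0 of 3 arrays, at 6 months on 2 of 3 and at 24 months on 0 of 2. On copy 1 alone the 6-month difference from 3 months was 0.52 (SE 0.37, adjusted p = 0.683 in limma), and the ages overlapped. On copy 2 alone it was 1.85 (SE 0.47, adjusted p = 0.0945), from 11.91 ± 0.92 to 13.76 ± 0.26 (SD, n = 3 each). The larger part of the averaged 6-month difference thus comes from a spot that was below the call of present in every 3-month sample. The 24-month difference from 3 months was 0.77 on copy 1 (adjusted p = 0.272 in limma). On copy 2, absent on every array of both ages, it was 1.32 (adjusted p = 0.114 in limma). Copy 1 read brighter than copy 2 on 16 of 18 arrays.

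**Figure D4:**
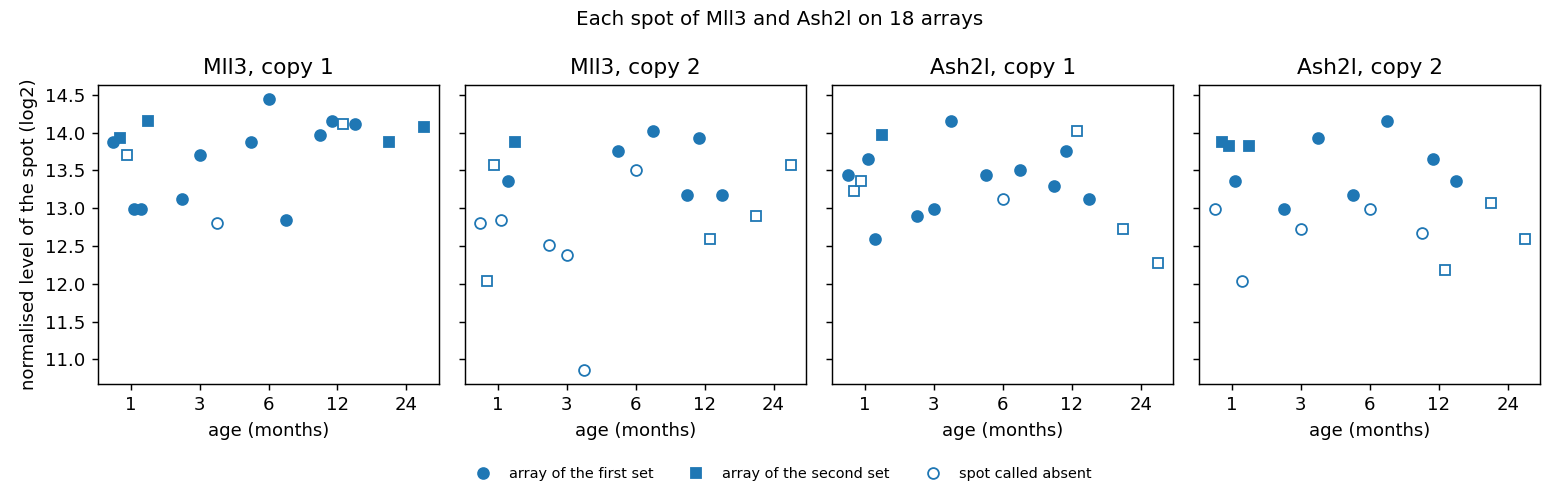
Normalised level (log2) of each spot of Mll3 and Ash2l on 18 arrays against donor age in months, open where the spot was called absent. At 3 months copy 2 of Mll3 is absent on all 3 arrays and lies below its 6-month values, while copy 1 overlaps between these ages. Both spots of Ash2l are absent on both 24-month arrays.

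Ash1l, the lysine 36 enzyme, was read in part on a saturated spot. Its sample values were 15.67, 15.62, 15.71 and 15.58 at 1 month and 15.76, 15.61 and 15.73 at 3 months. They were 15.61, 15.64 and 15.58 at 6 months, 15.50, 15.70 and 15.63 at 12 months and 15.55 and 15.67 at 24 months. Means ran from 15.61 to 15.70, and the spread between samples of an age, a pooled SD of 0.07, ranked 9 of 38 genes from the lowest. The 24-month difference was -0.04 (SE 0.06, 95% interval -0.17 to 0.10), and the interval spans the other ages' differences of -0.04 to 0.05 too. Copy 1 was marked as saturated on 13 of 18 arrays and copy 2 on 0, so on those arrays copy 1 gives only a bound. On copy 2 alone the means ran from 15.55 to 15.64 and the SD of an age from 0.02 (6 months) to 0.17 (12 months). Between the sets Ash1l differed by -0.02 (adjusted p = 0.856 in limma). It turned to 1.06 (adjusted p = 0.00587) with median centring, where the median of all genes is 0.63, and to 0.56 (adjusted p = 0.00919) with the local background in the correction.

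Ash2l encodes the core partner that binds the catalytic domain of MLL enzymes together with Rbbp5. Its level was 13.38, 13.59, 13.51 and 13.11 at 1 month and 12.94, 12.86 and 14.04 at 3 months. It was 13.30, 13.05 and 13.83 at 6 months, 13.34, 13.10 and 13.24 at 12 months, and 12.90 and 12.44 at 24 months. Detection ran from 4 of 4 at 1 month and 3 of 3 at 3 months through 2 of 3 at both 6 and 12 months down to 0 of 2. Both 24-month samples lay below every 1-month sample, but one of them lay above the lowest 3-month sample. Groups stood apart downward from 1 month in 10.5% of genes at 24 months.

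The 24-month difference of Ash2l from 1 month was -0.73 (SE 0.32, unadjusted p = 0.0450, adjusted p = 0.285 in limma). Its spots were called absent on both 24-month arrays, though each read above its local background. With its level there placed at the lowest of any detected gene on the array, where that was higher, the 1-month mean was 1.59-fold higher. That value holds for this scaling only, is not a lower bound and was not itself tested. The 24-month difference was -0.32 with the local background in the correction and -0.47 with no background correction. In bulk cultures fewer cells with the transcript and less of it per cell cannot be told apart. In the fit with the set the difference was -0.87 (adjusted p = 0.532) and within the second set -1.01 (adjusted p = 0.387). It was negative in all 13 settings, other than leaving out samples, that could give it a value.

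The samples in which Ash2l was not detected were on dim arrays, but not all dim arrays missed it. The 4 samples without it had array medians of 10099 (sample 7 of 6 months), 8286 (sample 3 of 12 months), 12984 and 9078 (24 months) pixel units. Ash2l was detected in sample 2 of 1 month, with a median of 10506, and had a present spot on the second array of sample 1 of 1 month, with 12813. The part of brightness in its 24-month level was not tested. In the first set 11 of 12 arrays had a present spot, and in the second 3 of 6, all of them 1-month arrays. Sample 8 of 1 month read 12.32 in the first set and 13.89 in the second, a gap of 1.58, and 5.41% of the other tested genes differed more there. The gap was 0.34 in sample 1 of 1 month, and 0.73 in sample 2 of 12 months, whose arrays are both in the first set. In both samples measured in both sets Ash2l read higher in the second. The fitted difference of the second set from the first was 0.39 (SE 0.31, adjusted p = 0.456 in limma), and -0.44 in the authors' deposited ratios. These samples give no test of the part of the set in the 24-month level.

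Wdr5 encodes the WD40 protein that binds the MLL enzymes and histone H3. It was detected in 1 of 15 samples, sample 2 of 3 months, with 2 of 36 spots called present, so it was not tested. Its levels ran from 11.89 to 13.30 over samples and give bounds rather than measurements. Copy 1 read a median of 19692 pixel units, below its local background on 16 of 18 arrays, against 8050 for copy 2. The copies differed by a median of 2.00 on the log2 scale.

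**Figure D5:**
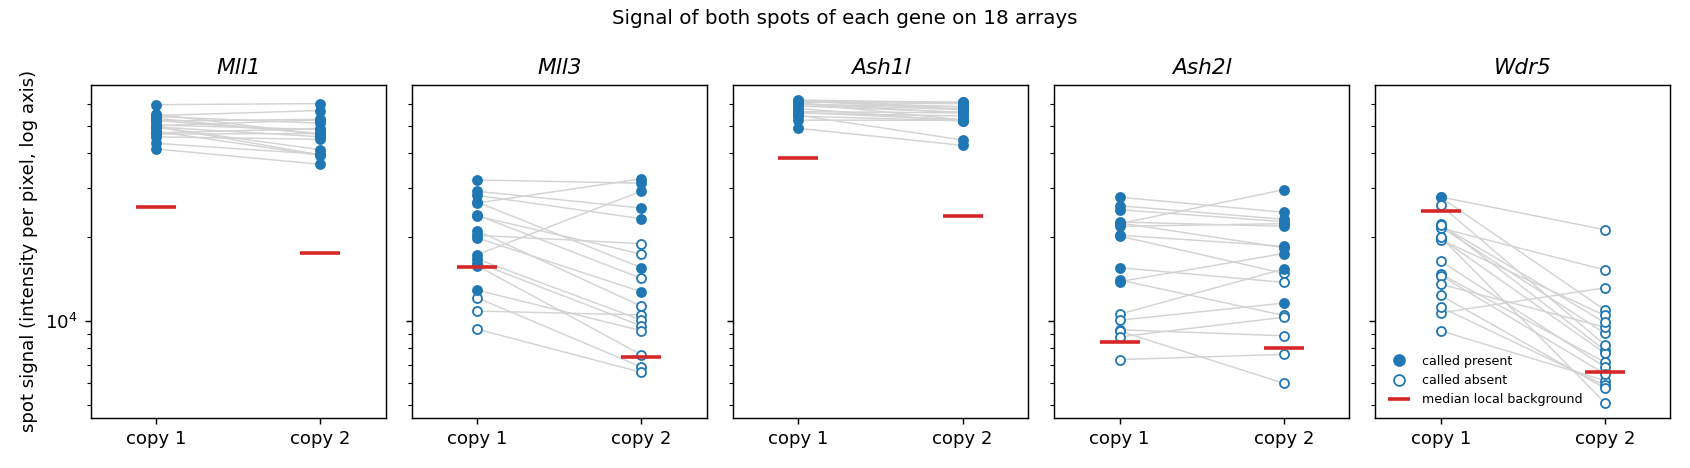
Spot signal in intensity per pixel (log axis) of both spots of the 5 genes on 18 arrays, joined by array. Filled points were called present and the red bar is the median local background. Mll1 and Ash1l are present throughout, and copy 1 of Wdr5 lies mostly under its background.

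No slope with age passed for a member. The slope per doubling of age was 0.05 (SE 0.04) for Mll1, 0.11 (SE 0.08) for Mll3, -0.01 (SE 0.01) for Ash1l and -0.11 (SE 0.06) for Ash2l, with adjusted p-values of 0.469 to 0.621 in limma. Limma called 0 of 38 genes (0%) in the trend, and 4 (10.5%) had an unadjusted p under 0.05. The slope of Ash2l was 0.10 within the first set and -0.21 within the second. Those of Mll1 and Mll3 turned to -0.02 and -0.05 in the authors' deposited ratios. In the order of mean levels no neighbouring ages passed the adjusted test. The widest gaps between neighbours were 0.77 for Mll3 (3 to 1 month, adjusted p = 0.327 in limma), 0.56 for Ash2l (24 to 12 months, 0.741), 0.23 for Mll1 (12 to 24 months, 0.776) and 0.05 for Ash1l (1 to 3 months, 0.636). The gaps of Mll3 and Ash2l were wider than the SD of either age. The median difference of the 4 tested members from 1 month was -0.06, 0.16, 0.01 and 0.12 at 3, 6, 12 and 24 months, and that of all tested genes was -0.0026, -0.0012, 0.0020 and -0.0012. Quantile normalisation holds the median of all genes nearly level, so it gives no separate check. At 24 months it was 0.71 with median centring and -0.37 in the authors' deposited ratios. Of the members, 2 were higher and 2 lower at 24 months.

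Of the other genes of the MLL complexes, Mll2 and Rbbp5 are on the array. Rbbp5, the core partner that binds Ash2l, was detected in 0 of 15 samples. Mll2, a symbol that the gene table gives to both Kmt2b and Kmt2d, was detected in 1. Of the remodelling subunits of the Trithorax group, 7 were tested and 0 passed in any comparison between ages. The one with the lowest p over the ages was Smarcc2, a SWI/SNF subunit (adjusted p = 0.137 in limma). Of the PRC2 genes, whose mark opposes that of the MLL enzymes, 5 were tested and 0 passed over the ages or against 1 month, with the lowest p over the ages for the histone-binding gene Rbbp4 (adjusted p = 0.0666 in limma). Rbbp4 was the 1 PRC2 gene that passed between older ages, with differences of -1.29 and -1.21 at 6 and 12 months from 3 months (SE 0.29 each, adjusted p = 0.0447 and 0.0349 in limma). In the fit that includes the set neither passed (adjusted p = 0.162 and 0.149). Between the sets 3 of the 7 remodelling genes (1 higher and 2 lower in the second) and 2 of the 5 PRC2 genes (1 higher and 1 lower) passed, beside Mll1 among the members.

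The genes whose levels followed each member most closely over the 15 samples were found by Pearson's r, in 148 relations. The highest r for Mll1 was with Cbx2, a PRC1 gene detected in 2 samples (r = 0.66, permutation p = 0.00725; Spearman's rho = 0.71, permutation p = 0.00441), and the next was Smarcc2 (r = 0.56). Mll3 was most like the PRC2 gene Eed (r = 0.63, permutation p = 0.0113; rho = 0.35, permutation p = 0.196) and the SWI/SNF gene Smarcb1 (r = 0.59). Ash1l was most like Cbx7 (r = 0.54) and Rbbp7 (r = 0.51), and Ash2l most like Ezh1 (r = 0.52) and Phc2 (r = 0.40). No relation passed after adjustment over the 148. The lowest adjusted p belonged to an inverse relation, that of Mll3 with Rbbp4 (r = -0.74, permutation p = 0.000600, adjusted p = 0.0888; rho = -0.76, permutation p = 0.00163, adjusted p = 0.218). It was -0.61 without the 2 samples farthest from the median of Mll3. For the closest genes by r the lowest adjusted p was 0.342, by permutation. Without the 2 samples farthest from the member's median, r with the closest gene was 0.49 for Mll1, 0.24 for Mll3, 0.57 for Ash1l and 0.20 for Ash2l. The r of Mll3 and Ash2l fell most. Leaving out a member's farthest samples narrows its range, so this cannot show that the relations rest on them. In the 9 samples measured in the first set alone these r were 0.89, 0.84, 0.60 and 0.35, and that of Mll3 with Rbbp4 was -0.90. The samples share their arrays and the normalisation, so these values are a description.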

How the data were processed

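RNA was extracted, amplified linearly and labelled with biotin, per the labels' protocols, then hybridised to custom mouse arrays of oligonucleotides. Deposited raw values are the spot intensity, a sum of pixel signal, and a local background intensity, per the file headers. The deposited sheets also hold present and bleeding (saturation) calls. The authors' deposited series values are a ratio for 49 genes, spot intensity divided by the median housekeeping intensity of that array (recomputed to within 0.00707). All housekeeping spots were marked as saturated on each of the 18 arrays, which limits these ratios. For the fits 0.1 was added to each ratio before log2, which shrinks the differences of dim genes. Scanner and software: not given in the sources used here. Of 23 arrays, 5 belong to other samples and were not used.

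Intensity was divided by the spot area, corrected with normexp (offset 50) on the spot signal alone with limma 3.58.1 under R 4.3.3. Quantile normalisation used 117 gene spots of the 128 spots, and values were taken to log2. Spots, then arrays of a sample, were averaged. Ages were compared with lmFit and eBayes (10 residual degrees of freedom) by an F-test, by the 10 differences between ages and by the slope over log2 of age. A further fit over 18 arrays had the set of arrays as a term and the sample as a random block. It had 12 residual degrees of freedom and an estimated correlation of 0.03 between arrays of a sample. Such arrays thus counted nearly as separate units. The Benjamini-Hochberg adjustment ran over 38 genes in each comparison, with a threshold of 0.05. Permutation p-values are two-sided, from 100000 permutations (Python 3.11.15, SciPy 1.17.1). The fitting code was tested on simulated data.

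The members, lists, tests and alternatives were chosen with earlier results of these data known. Named besides the members are the 2 tested genes most like each, and in each list the gene of lowest p. No label gives a date for the sets of arrays. The fits on 1 spot of each gene were added after seeing the data. Genes not analysed here are left out.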

Additional observations from a re-analysis of the deposited data

How the results depend on the processing

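No member passed over 5 ages, in the trend or against 1 month in any of 14 settings or on leaving out any of the 15 samples. Without each sample in turn, limma called 0 to 2 genes over 5 ages, 0 to 2 at 6 months and 0 to 10 between older ages, with 0 to 1 member there and 0 to 1 between the sets. Set differences then ran from -0.064 to 0.40 for Mll3 and from -0.11 to 0.038 for Ash1l, and the 24-month difference of Ash1l from -0.10 to 0.022.

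The larger moves in counts are given by setting. The main counts were 0 genes over 5 ages, 1 at 6 months, 0 at 12 months and 9 between the sets, and 5 summed calls between older ages. The deposited local background gave 3 between older ages (1 member, Mll3) and 3 between the sets (1 member, Ash1l and not Mll1). No background correction gave 2 at 6 months and 11 between older ages (1 member). Median centring gave 1 over 5 ages, 0 at 6 months, 2 between older ages and 21 between the sets (2 members), 17 of them higher against 4 of 9 above. The authors' ratios (32 of the tested genes) gave 0 at 6 months, 0 between older ages and 15 between the sets, 0 of them higher and 0 members. No filter gave 0 at 6 months and 0 members between the sets, and detection in at least 8 samples gave 9 between older ages. The first array of each sample gave 2 at 6 months and 3 between older ages (1 member). The set as a term gave 0 at 6 months and 1 between older ages. The first set alone gave 2 over 5 ages, 3 at 6 months and 1 at 12 months, and the second set 1 over 5 ages and 1 at 12 months. Array weights gave 9 over 5 ages and 26 between older ages (3 comparisons of Mll3). The first spot of each gene gave 0 at 6 months, and between the sets 5 genes higher and 6 lower. The last spot gave 1 over 5 ages, 3 at 6 months, 8 between older ages and 5 between the sets, with 0 members and 1 of them higher.

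Directions turned as follows. With the local background the set difference was -0.049 for Mll3 and 0.56 for Ash1l, whose 24-month difference was 0.28 and slope 0.071. With median centring those of Ash1l were 1.06, 0.72 and 0.14. With the authors' ratios the set differences were -0.040 (Mll1), -0.57 (Mll3) and -0.44 (Ash2l), the 24-month difference of Mll1 -0.054, that of Mll3 from 3 months -0.20, and their slopes -0.017 and -0.048. The last spot gave set differences of -0.18 for Mll3 and 0.030 for Ash1l. The slope of Ash2l was 0.10 in the first set, and Ash1l gave 0.021 at 24 months and a slope of 0.0096 in the second. The cause of these moves was not tested.

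The replicate block gave 0 genes at 6 months and 0 between older ages, with an adjusted p of 0.450, 0.377 and 0.457 in limma for Mll3 at 6, 12 and 24 months from 3 months. The labels name nothing that samples with the same replicate number share besides the number. Of 12 such pairs 6 had a correlation of deviations over 0.1 (median 0.03, range -0.42 to 0.40), against 30 of 77 other pairs (median -0.02). The pairs are too few to show whether such samples deviate together. The second set has no sample of 3 or 6 months and the first none of 24 months, so those comparisons have no value there. Mll3, Ash2l and Wdr5 had spots near background, which limits their levels.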

Other observations

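The surroundings of the 2 spots of a gene differed. The median local background beside copy 1 and copy 2 was 38473 and 23802 pixel units for Ash1l and 25663 and 17549 for Mll1. It was 15570 and 7448 for Mll3 and 24701 and 6595 for Wdr5, while for Ash2l both were close, at 8440 and 8028. Copy 1 and copy 2 were called present on 15 and 7 of 18 arrays for Mll3, 12 and 10 for Ash2l and 2 and 0 for Wdr5, and both on all 18 for Mll1 and Ash1l. Copy 1 read brighter on 12 of 18 arrays for Mll1, 16 for Mll3, 18 for Ash1l, 11 for Ash2l and 17 for Wdr5. The part of the surroundings in the levels was not tested.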
